A study of Homo sapiens with 4 samples.

Results

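The transcription factors NRF2 and NFE2 and their relatives were examined in A549 cells treated with embelin. The group holds 10 of the 30970 genes or transcripts named on the array: the CNC (cap 'n' collar) factors NFE2, NFE2L1 (NRF1), NFE2L2 (NRF2) and NFE2L3 (NRF3), the NRF2 inhibitor KEAP1, the small MAF factors MAFF, MAFG and MAFK, and the repressors BACH1 and BACH2. All non-control probes that carried one of these names, or a RefSeq transcript of one of these genes, were taken, which gave 18 of the 50238 probes on the array. The family was chosen by measured values, since the fold changes of embelin against control on these arrays were known when it was picked, so that their values are given as a description with no test. A549 is an established human lung adenocarcinoma line, and it is known to carry a damaging mutation in KEAP1 with high basal NRF2 activity. Embelin is a plant benzoquinone. The 2 control samples were untreated A549 cells at 4 h, with no vehicle named in the labels, and the 2 embelin samples were A549 cells given 15 µM for 4 h. Both groups had been moved to medium with less serum before the treatment. RNA of each sample was hybridized with Cy3 to 1 array, and nothing in the labels says whether the replicates came from separate cultures, so that the spread given here may be technical.

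CNC factors bind DNA as pairs with a small MAF protein, at antioxidant response elements and the related NF-E2 and MAF sites. KEAP1 holds NRF2 for destruction by a CUL3 ubiquitin ligase, and electrophiles that modify KEAP1 let NRF2 accumulate, mostly without a change in its own transcript. Small MAF proteins have no activation domain. They activate when paired with NRF2 and repress when paired with BACH1, a haem-sensing factor that keeps HMOX1 and the ferritin genes silent, or with one another. NFE2 is best known from erythroid cells and megakaryocytes, NRF1 from the control of proteasome genes, and BACH2 from lymphocytes.

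Upstream sequence was read from RefSeq (GRCh38.p14) for the members whose 250 bases before a transcription start held either of 2 short motifs on either strand. TGACNNNGC is the core of the antioxidant response element, and TGANTCA is the core shared by NF-E2, BACH and AP-1 sites. The motifs can overlap, since a TGANTCA whose N is C and that is followed by GC holds both. The set below is shown because it holds every member window with either motif, TGACNNNGC for MAFF and KEAP1 and TGANTCA for BACH1. Capitals mark the motif.
MAFF, chr22:38201744-38201993, plus strand, TGACNNNGC on the reverse strand: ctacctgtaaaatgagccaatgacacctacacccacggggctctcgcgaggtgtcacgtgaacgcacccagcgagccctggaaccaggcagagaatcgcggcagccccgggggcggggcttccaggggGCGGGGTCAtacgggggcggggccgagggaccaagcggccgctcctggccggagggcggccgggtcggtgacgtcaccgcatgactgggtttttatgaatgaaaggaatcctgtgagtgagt
KEAP1, chr19:10502772-10503021, minus strand, TGACNNNGC on each strand: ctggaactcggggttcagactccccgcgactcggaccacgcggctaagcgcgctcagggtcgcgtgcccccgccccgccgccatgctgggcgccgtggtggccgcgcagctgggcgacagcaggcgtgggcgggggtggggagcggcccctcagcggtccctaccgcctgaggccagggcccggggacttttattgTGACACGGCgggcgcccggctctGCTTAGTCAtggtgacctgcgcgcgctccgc
BACH1, chr21:29298672-29298921, plus strand, TGANTCA: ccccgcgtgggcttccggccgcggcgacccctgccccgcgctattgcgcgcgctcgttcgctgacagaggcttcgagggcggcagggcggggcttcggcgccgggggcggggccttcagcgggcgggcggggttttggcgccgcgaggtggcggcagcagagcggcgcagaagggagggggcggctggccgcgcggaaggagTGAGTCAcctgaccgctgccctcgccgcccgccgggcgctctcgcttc
The table used held 14 such windows for 8 of the members. NFE2 and MAFK are named only. TGACNNNGC stood in 2 of the 14 windows, those of MAFF and KEAP1, and in 10.9% of all 35116 windows. TGANTCA stood in 1 of the 14, that of BACH1, and in 6.57% of all windows. These matches describe letters in a window and say nothing of which factor was bound.

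Signals are given as log2 of the scanner's background-subtracted intensity after the 4 arrays had been set to the same 75th percentile, here called the normalized log2 signal. It can be compared between arrays at 1 probe but not between probes. All arrays lay on 1 slide, the controls at positions 1 and 4 and the embelin samples at 2 and 3, and between 49.9% and 66.7% of probes were well above background, with control replicate 2 and embelin replicate 1 at the low end. The 5 epithelial markers KRT8, KRT18, KRT19, EPCAM and CDH1 were well above background on every array. Of the erythroid and megakaryocyte markers, HBG1 was above background on no array and PF4 and TAL1 on all 4, and the listed markers had a summed signal of 585 and 621 in the controls and 445 and 496 with embelin. The part of these markers in the NFE2 result below was not tested. Of 6 leukocyte and endothelial markers only CD14 was above background on all 4. Across the 17528 genes tested, limma called 326 after Benjamini-Hochberg adjustment (adjusted p under 0.05), with a median fold change of -0.06 on the log2 scale.

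MAFF and MAFK were about 10.1-fold and 6.13-fold higher with embelin, BACH1 was 2.65-fold higher and NFE2 was lower. The size for NFE2, 10.2-fold (-3.35 on the log2 scale), included 1 embelin array on which it was not well above background, and was -1.53 on the log2 scale with a background correction that adds an offset (normexp). The CNC genes NFE2L1, NFE2L2 and NFE2L3, the inhibitor KEAP1 and the small MAF gene MAFG differed by at most 0.32 on the log2 scale at their main probe, and BACH2 was not well above background on any array. Of the 9 members kept by the filter on dim probes, MAFF, MAFK and NFE2 were among the genes called, 2 higher and 1 lower, where 1.29% and 0.571% of all genes were called in these directions. NFE2 was kept by the filter through its control arrays, where it was high. A difference of at least 2-fold was seen in 3 members upward and 1 downward, where 6.65% and 5.93% of all genes, 12.6% in all, differed by as much. The 2 groups did not overlap in 4 members that were higher and 2 that were lower with embelin, where 21.1% and 30.5% of genes with a value on every array did so. As the members were chosen with this comparison known, nothing is read from these counts. As RNA came from whole cultures, a change in every cell and a change in some of the cells cannot be told apart.

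**Figure D1:**
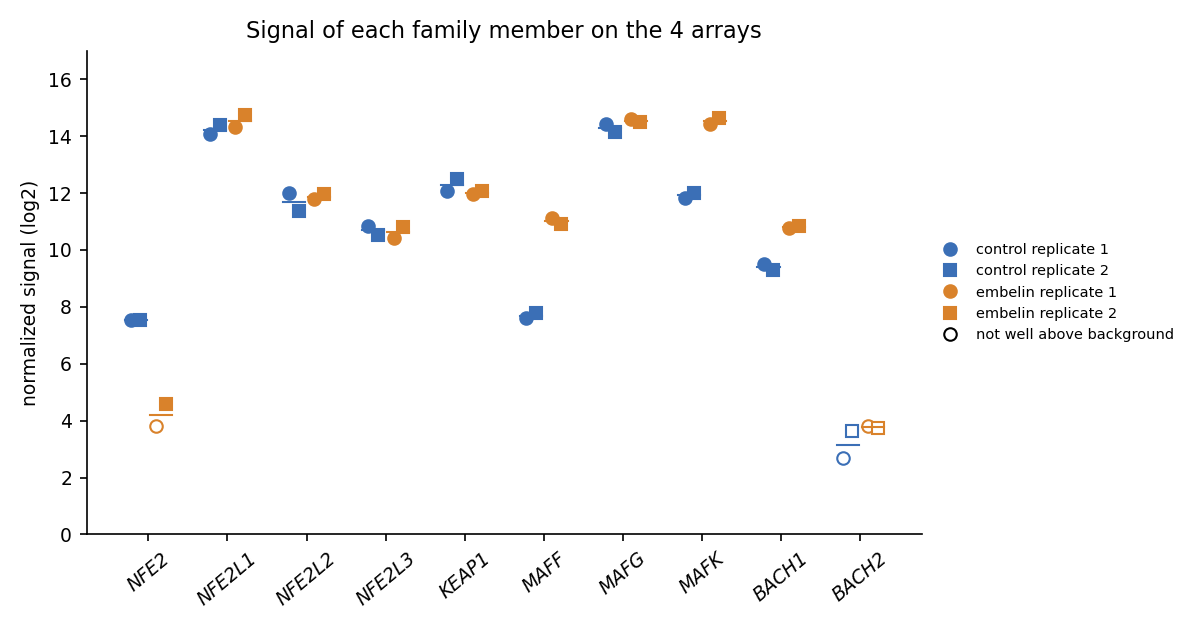
Normalized log2 signal (y axis) of the 10 members at their main probe on the 2 control arrays (blue) and the 2 embelin arrays (orange), with a line at each group's mean and open symbols for values not well above background. Both embelin arrays lie above both control arrays by over 3 log2 units for MAFF and by over 2 for MAFK, and below them by nearly 3 or more for NFE2.

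MAFF, a small MAF gene known to be induced by stress, gave normalized log2 signals of 7.60 and 7.78 in the controls and of 11.13 and 10.92 with embelin. The difference of 3.34 on the log2 scale had a standard error of 0.18, and each of the 4 pairings of an embelin with a control array gave at least 3.15. It was the 67th highest of the 17528 fold changes. The only MAFF probe was well above background on all 4 arrays, and its upstream window is the first of those printed above.

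MAFK was measured at 2 probes that differed. At the brighter, the controls gave 11.84 and 12.00 and the embelin samples 14.43 and 14.64 in normalized log2 signal, so that the groups lay apart by 2.62 (standard error 0.18), the 162nd highest fold change. At the dimmer the controls themselves were 5.88 and 8.67, with 7.69 and 7.90 for embelin in between, and the mean difference was 0.52. The spread of the controls at this probe, an SD of 1.97 (n = 2), exceeded its difference, and the mean over both probes was 1.57.

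MAFG is the remaining small MAF gene, and its main probe was bright in both groups. It gave 14.42 and 14.13 in the controls and 14.59 and 14.49 with embelin, a log2 difference of 0.26 (standard error 0.19). The other MAFG probe gave 11.61 and 11.13 in the controls against 11.80 and 11.79 with embelin, a difference of 0.43. At both probes the embelin arrays lay just above the control arrays, but the smallest gap, to control replicate 1, was 0.07 at the main probe and 0.19 at the other.

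BACH1 gave 9.50 and 9.31 in the controls and 10.77 and 10.85 with embelin at its main probe. The difference of 1.41 (standard error 0.17) was larger than the spread of either group, with SDs of 0.14 and 0.06 (n = 2 each), and was the 704th highest of the 17528. It was not among the genes called. It was so with normexp, with the filter on all 4 arrays and with the trend and robust options of limma, and under no other alternative. As BACH1 was chosen with this comparison known, nothing is read from these calls. A second probe, designed to another BACH1 transcript, was well above background on embelin replicate 2 only and was not used. BACH2, a relative known from B cells, read 2.70 and 3.62 in the controls and 3.80 and 3.76 with embelin, none of them well above background, so that no fold is given.

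NFE2 was measured at 1 probe. The control arrays agreed closely, at 7.55 and 7.53 in normalized log2 signal, and the embelin arrays gave 3.82 and 4.57. The log2 difference was -3.35 (standard error 0.30). Of the treated samples, replicate 2 alone was well above background, and the lowest signals so marked on embelin replicates 1 and 2 were 5.97 and 3.89. Between the 2 arrays with the lower background, embelin replicate 2 and control replicate 1, the difference was -2.98, and between the noisier 2 it was -3.71. With normexp the difference was -1.53, in the same direction and smaller.

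The 3 kept genes outside the family whose 4 values, each taken from its own mean, lay nearest to those of NFE2 were BMP4, ZBED2 and PPARGC1B. Their Euclidean distances over the 4 arrays were 0.34, 0.36 and 0.45, and their log2 fold changes were -3.34, -3.10 and -2.98. These genes, too, were well above background with embelin in replicate 2 alone.

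**Figure D2:**
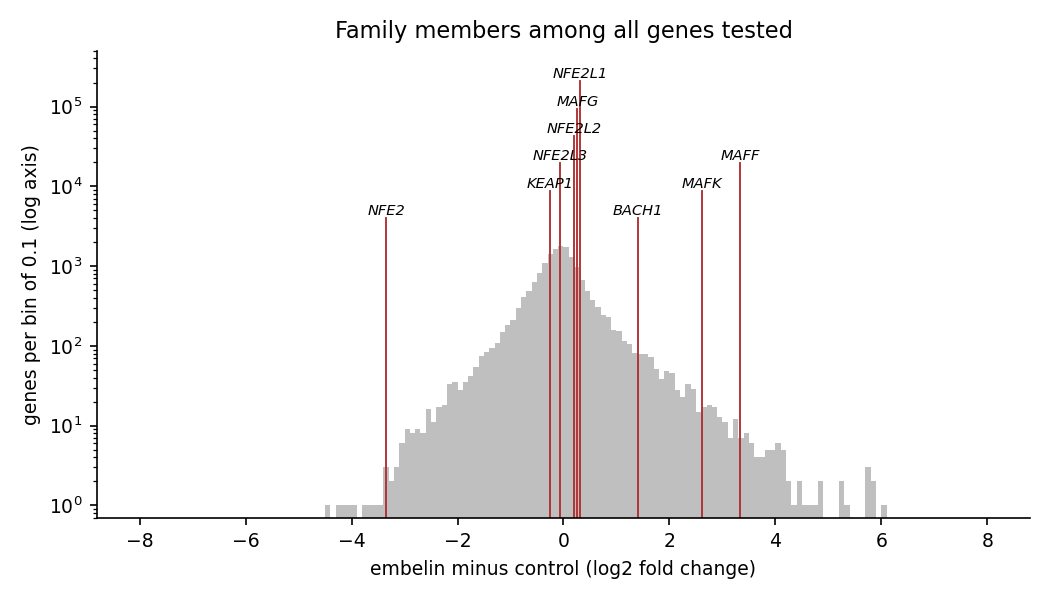
Number of genes per bin of 0.1 (y axis, log scale) against the log2 fold change of embelin against control (x axis) for the 17528 genes tested, with red lines at the 9 members tested. NFE2 stands in the left tail at -3.35, MAFF and MAFK in the right tail at 3.34 and 2.62, and 5 members lie in the middle between -0.26 and 0.32.

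NFE2L2, which encodes NRF2 itself, gave 11.99 and 11.36 in the controls and 11.78 and 11.96 with embelin at its RefSeq probe. The groups overlapped, and the difference of 0.20 (standard error 0.28) lay within the spread of the controls. A second probe, designed to another accession, gave 7.47 and 6.39 against 6.12 and 6.73, a difference of -0.50 with overlapping groups. The sign of the NRF2 difference thus depended on the probe, and it was also below 0, at -0.12, without control replicate 2.

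KEAP1, the adaptor that presents NRF2 to its ubiquitin ligase, gave 12.06 and 12.49 in the controls and 11.97 and 12.06 with embelin. Embelin replicate 2 and control replicate 1 differed by -0.003 only, and the mean difference was -0.26 (standard error 0.22). NFE2L3 gave 10.83 and 10.54 against 10.43 and 10.81 at its main probe, with overlapping groups and a difference of -0.06 (standard error 0.23). Its other probe was well above background on 1 array of each group and was not used.

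NFE2L1 had 4 probes, and the choice among them decided the sign of its difference. The main probe, a RefSeq one, gave 14.07 and 14.38 in the controls and 14.32 and 14.76 with embelin, a difference of 0.32 (standard error 0.24) with overlapping groups. The other RefSeq probe differed by 0.34 and the probe to an mRNA accession, AL833530, by 0.28. The brightest, to the accession L24123, gave 16.99 and 17.22 in the controls and 17.18 and 16.78 with embelin, a difference of -0.13. The groups overlapped at all 4 probes.

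The letters of that brightest probe were compared with every other probe of the array, on both strands, because a gene named by its brightest probe would have been read from it. Its first 39 of 60 bases, in capitals below, are the reverse complement of the first 39 bases of a probe for RNA18SN5, a gene for 18S ribosomal RNA.
NFE2L1 (L24123): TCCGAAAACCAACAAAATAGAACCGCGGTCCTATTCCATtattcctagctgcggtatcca
RNA18SN5 (NR_003286): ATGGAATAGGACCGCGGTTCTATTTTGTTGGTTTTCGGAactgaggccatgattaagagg
No other member's probe shared a run of 20 bases with another probe of the array on either strand. The RNA18SN5 probe gave 13.31 and 12.34 in the controls and 13.54 and 11.75 with embelin. Which RNA the L24123 probe measured was not tested, and the RefSeq probes stand for NFE2L1 here.

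**Figure D3:**
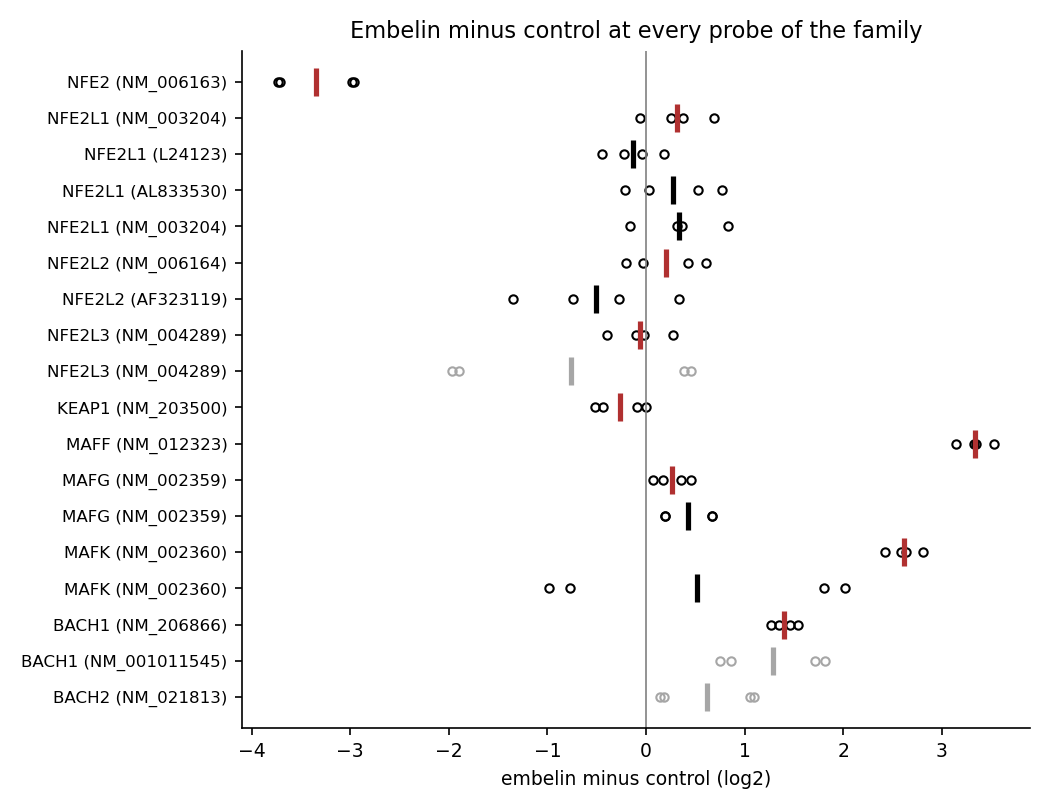
Embelin minus control in normalized log2 signal (x axis) at all 18 probes of the family, each row 1 probe with its accession. Circles are the 4 pairings of an embelin with a control array, bars their mean (red for the main probe of a gene, grey for probes not kept by the filter). The 2 MAFK probes differ, at 2.62 and 0.52, and the L24123 probe of NFE2L1 is the only one of its 4 below 0.

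Of 32 genes known as NRF2 targets, listed by hand, limma called 0 after adjustment over all genes, where 1.86% of all genes were called. HMOX1 and GCLC, both higher, had an unadjusted p under 0.05, against 19.4% of all genes (8.33% higher). The methods' t-test called 0 genes on the whole array after adjustment, so that its 0 here says nothing of these targets. The list had a median of -0.11 on the log2 scale, and 29 of the 32 lay within 0.5 of 0. All 32 were kept by the filter on dim probes. HMOX1, which encodes haem oxygenase 1, gave 13.73 and 14.25 in the controls and 16.25 and 15.90 with embelin. The difference of 2.08 (standard error 0.27, adjusted p = 0.0546 from limma) was larger than the spread of the arrays but missed the threshold. Over the alternatives its adjusted p ran from 0.00679 to 0.423. GCLC, the catalytic subunit of glutathione synthesis, gave 12.70 and 12.47 against 13.27 and 13.37, a difference of 0.74 (standard error 0.18, limma's adjusted p = 0.139), and 0.61 at its other kept probe. The adjusted p of GCLC ran from 0.0425 to 0.636 over the alternatives.

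NQO1 and SLC7A11, picked after their values were seen as textbook NRF2 targets, did not pass. NQO1, a quinone reductase, gave 11.68 and 11.79 in the controls and 11.54 and 11.73 with embelin, a log2 difference of -0.10 (standard error 0.17). SLC7A11, the cystine transporter, gave 11.15 and 10.48 against 10.57 and 11.37 at its main probe, a difference of 0.15 (standard error 0.40). Another kept probe of SLC7A11 gave 9.95 and 9.97 against 10.36 and 10.93, a difference of 0.69 without overlap. A further one differed by 0.34, so that the size for SLC7A11 depended on the probe. At the main probe of both genes the groups overlapped.

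Of 6 genes known to be repressed by BACH1, 5 were kept and limma called 0, against 1.86% of all genes. HMOX1 and GCLC, given above, had the largest differences and an unadjusted p under 0.05, against 19.4% of all genes. The methods' t-test called 0 genes on the whole array after adjustment. The 5 kept are also on the NRF2 list, and the sixth, SLC40A1, was not kept. TGACNNNGC stood before a start of 7 of the 22 NRF2 targets with a window in the RefSeq table (31.8%), against 13.2% of all genes there. HMOX1 is named only, and neither motif stood in the window of GCLC.

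Among the genes that control these factors, NGLY1 rose. It encodes the enzyme that removes N-glycans and is needed to make active NRF1. It gave 13.03 and 13.15 in the controls and 14.57 and 14.61 with embelin, an increase of 1.50 log2 units (standard error 0.16, adjusted p = 0.0450 from limma). Its other kept probe differed by 1.79, but gave 5.06 on control replicate 2, where the lowest signal marked well above background was 5.85. That probe thus passed the filter through the embelin arrays, where it was high. The call was lost with any 1 array left out, and the adjusted p ran from 0.00259 to 0.410 over the alternatives. NGLY1 was the only 1 of the 6 listed genes for NRF1 and BACH1 processing to be called, where 1.29% of all genes were called higher. DDI2, the protease that cleaves NRF1, gave 5.71 and 4.70 in the controls and 9.81 and 5.70 with embelin, so that its fitted difference of 2.55 rested on embelin replicate 1. It was well above background on only 1 control array, so that DDI2 passed the filter through the embelin arrays. FBXO22, part of a ligase for BACH1, differed by 0.15 with overlapping groups. VCP (-0.59, standard error 0.16, limma's adjusted p = 0.171) and FBXL17 (-0.79, standard error 0.31, limma's adjusted p = 0.276) were lower. For both, the groups did not overlap, as for 30.5% of genes with a value on every array in that direction. VCP was called with the trend and robust options of limma. By sign, 4 of the 6 genes were higher and 2 lower. DDI2, FBXO22, VCP and FBXL17 were picked after their values were seen.

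Of 15 genes for NRF2 stability and coactivation, limma called 0 against 1.86% of all genes. At an unadjusted p under 0.05 there were 3, AMER1, BTRC and RXRA, all of them lower, where 11.1% of all genes were. The methods' t-test called 0 genes on the whole array after adjustment. AMER1, whose product is known to bind KEAP1, gave 9.31 and 8.99 in the controls and 7.60 and 7.37 with embelin. Its difference was -1.67 (standard error 0.21, limma's adjusted p = 0.0526), and its other 2 kept probes gave -1.83 and -1.88. The adjusted p of AMER1 ran from 0.0171 to 0.423 over the alternatives. BTRC, a ligase subunit that recognises NRF2, differed by -1.01 (standard error 0.23, limma's adjusted p = 0.125) and by 0.22 at its other kept probe, so that its direction depended on the probe. CUL3 differed by -0.70 (standard error 0.26) and SQSTM1, which competes with NRF2 for KEAP1, by 0.47 (standard error 0.26). CUL3 and SQSTM1, neither of which had an unadjusted p under 0.05, and RXRA were picked after their values were seen.

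Proteasome subunit genes, the best known targets of NRF1, were listed in number 31. Limma called 0 of them against 1.86% of all genes, and 1 had an unadjusted p under 0.05 and was lower, as were 11.1% of all genes. The methods' t-test called 0 genes on the whole array after adjustment. All 31 lay within 2-fold and the median was -0.06, the same as over all genes. PSMD12 had the largest difference, -0.58 (standard error 0.21, limma's adjusted p = 0.255), and PSMC2 the next, -0.27 (standard error 0.20, adjusted p = 0.523 from limma).

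The large MAF genes encode relatives of the small MAF factors that do carry an activation domain. Of these, MAF rose, from 5.19 and 5.21 in the controls to 7.47 and 7.15 with embelin, an increase of 2.11 log2 units (standard error 0.19, limma's adjusted p = 0.0358). At its probe control replicate 2 was not well above background, so that MAF passed the filter through the embelin arrays, where it was high. The call was lost with any 1 array left out, as was every other call on the array, that of NGLY1 included. The increase was 1.04 with normexp, and MAF was not tested under the filter on all 4 arrays.

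**Figure D4:**
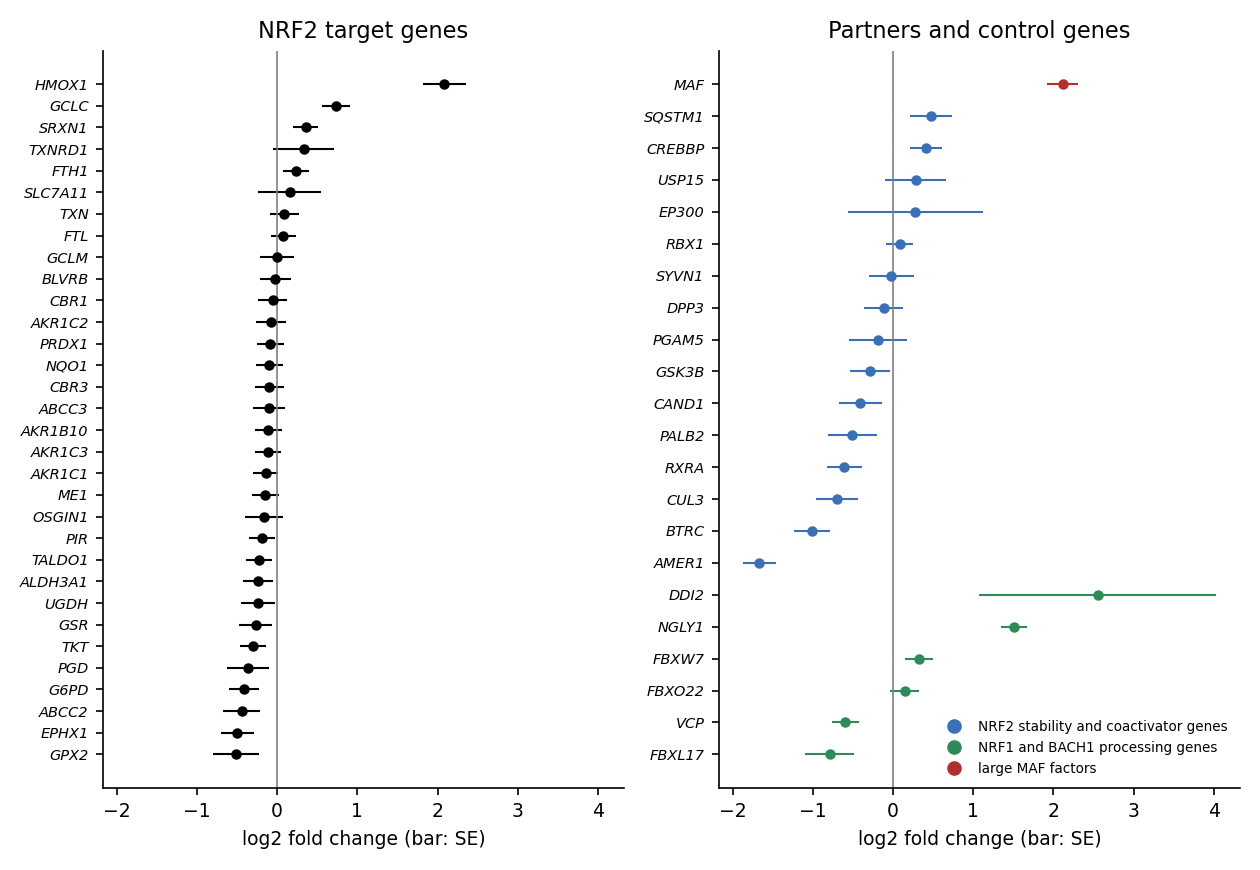
Log2 fold change of embelin against control (x axis, bars standard errors from limma) for the 32 NRF2 target genes (left) and for the stability and processing genes and the large MAF gene MAF (right, coloured by list). HMOX1 at 2.08 and GCLC at 0.74 stand apart from the other targets on the left, and DDI2 at 2.55 with the widest bar, MAF at 2.11, NGLY1 at 1.50 and AMER1 at -1.67 lie far from 0 on the right.

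The members' fold changes were computed again under 11 other ways of processing, which included leaving out each array. Fits with the replicate number or the array position as a term could not change these values, since both are balanced over the 2 groups. Under the rest, the sign held for NFE2, MAFF, MAFK, BACH1, MAFG and KEAP1, and not for NFE2L1, NFE2L2 and NFE2L3.

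**Figure D5:**
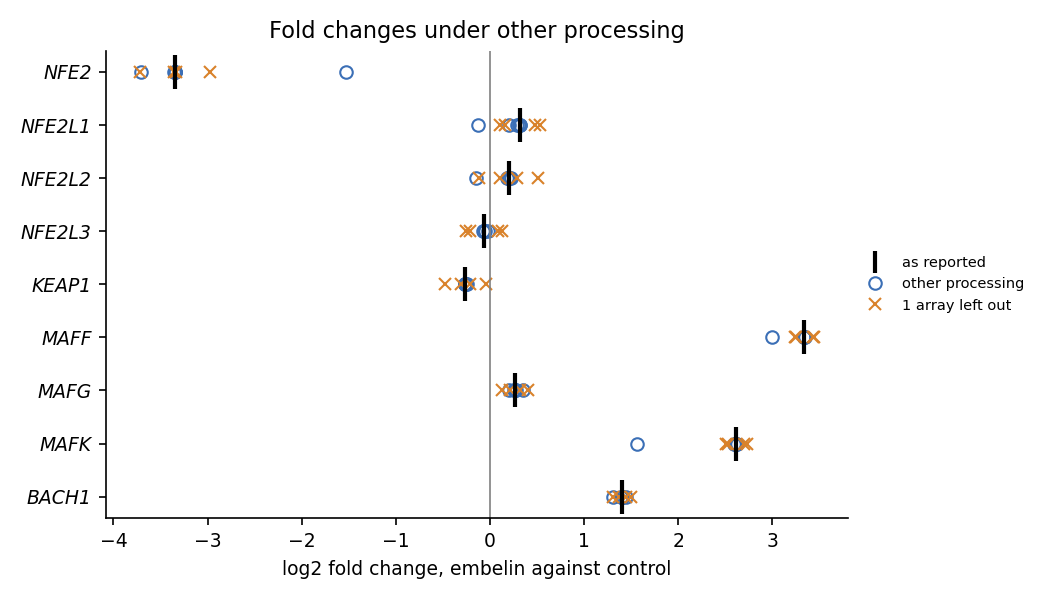
Log2 fold change of embelin against control (x axis) of the 9 members tested, as reported (bars), under other processing (circles) and with 1 array left out (crosses). NFE2 spans -3.72 to -1.53 and MAFK 1.57 to 2.72, while BACH1 stays between 1.31 and 1.50.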

How the data were processed

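The authors deposited 1 Feature Extraction file per array (version 10.7.3.1 per the file headers) with spot intensities after background subtraction and detrending, not normalized between arrays, and a table of probe intensities without stated steps. Each spot flagged as an outlier was left out, spots of a probe were averaged, and every array was scaled to a common 75th percentile (675, the geometric mean), given a floor of 1 and taken as log2, after the shift named in the study's methods. Probes were named by RefSeq accession where possible (28595), through a like-named probe (2341), or as deposited (19302). Probes well above background on both arrays of a group were kept (25975), and the brightest kept probe named by a RefSeq accession stood for a gene. That preference was chosen after a probe's sequence had been seen. The members and lists were chosen with earlier results of these data known. Some listed genes are not reported here.

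Embelin was compared with control over 17528 genes with limma 3.58.1 in R 4.3.3 (lmFit, eBayes, Benjamini-Hochberg), checked on simulated data. No exact 2-sided permutation test of 2 against 2 arrays can give a p below 0.333. The number of arrays limits the precision. The genes named were every member at every probe, the called genes of each list or else its 2 largest differences, the 3 genes nearest to the member with the largest fold change as reported (NFE2, about level with MAFF, and smaller than MAFF with normexp), and those said to be picked later. The alternatives were normexp (offset 50), quantile normalization, the deposited table, no filter or a filter on all 4 arrays, the methods' t-test, trend and robust eBayes, a replicate block, the mean over probes or each probe alone, array position as a covariate, and leaving out each array. The brightest probe whatever its accession was added after seeing the data.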

Additional observations from a re-analysis of the deposited data

How the results depend on the processing

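The members' log2 fold changes kept their direction under all 11 alternatives for NFE2 (-3.72 to -1.53), MAFF (highest 3.44, lowest with normexp), MAFK (1.57 to 2.72), BACH1 (1.31 to 1.50), MAFG (0.12 to 0.41) and KEAP1 (-0.48 to -0.05). They crossed 0 for NFE2L1 (-0.13 to 0.53), NFE2L2 (-0.15 to 0.51) and NFE2L3 (-0.25 to 0.13), whose groups overlapped at the main probe. The value of -0.13 for NFE2L1 came from the brightest probe whatever its accession. The replicate block and array position, both balanced over the 2 groups, could not change any of these fold changes.

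The calls changed more often. With the replicate number as a block, limma called 0 genes higher, 0 lower, 0 members, 0 processing genes and 0 large MAF genes, against 226, 100, 3, 1 and 1 in the comparison as reported. The deviations of same-numbered arrays correlated at 0.18 across genes, and nothing in the labels says that the numbers pair the samples. The same 5 counts were 0 without a filter on dim probes, by the methods' t-test, with array position as a covariate, and with each array left out in turn (0 to 0 for each). With 1 array left in a group, it is assumed to vary like the other group. Normexp gave 415 higher and 257 lower, with 1 NRF2 target, 1 BACH1 repressed gene (HMOX1 in both), 1 NRF2 stability gene (AMER1) and 0 large MAF genes. The filter on all 4 arrays, under which NFE2 and MAF were not tested, gave 415 higher and 340 lower, with the same 1, 1, 1 and 0. Trend and robust gave 557 higher and 481 lower, 2 NRF2 targets and 2 BACH1 repressed genes (HMOX1 and GCLC in both), 1 NRF2 stability gene and 2 processing genes. Quantile normalization gave 62 lower and 0 processing genes, and the values deposited per probe gave 55 lower and 0 processing genes. The mean over probes and each probe on its own gave 1 NRF2 stability gene and 0 processing genes each. Under quantile normalization NFE2 was no longer called, and under the mean over probes MAFK was not. BACH1 was called under normexp, the filter on all 4 arrays, and trend and robust. The cause of these changes was not tested.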
